A study of Bos taurus with 12 samples.

Results

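The epithelium of the isthmus was compared with that of the ampulla in heifers near ovulation, to describe which genes and processes mark each segment of the bovine oviduct at that time. The comparison used the 3 follicular phase (FP) isthmus arrays and the 3 FP ampulla arrays, 6 of the 12 arrays of the series, paired by the animal number in the sample titles. It was described over 18010 genes, those of the 26773 probesets that carry a single gene symbol. All animals were normally cycling Angus heifers with no genetic alteration. The FP heifers received 25 mg prostaglandin F2α on day 6 of the cycle, which ends luteal function, and were killed 36 h later with a preovulatory follicle. The 3 luteal phase (LP) heifers, which served here for the spread and for a comparison of phases, received no treatment and were killed on day 11 or 12. Cells were squeezed from small sections of the oviduct on the side of the follicle or corpus luteum, and each RNA sample was read on 1 array. Squeezing frees mostly epithelium, so the pellets are a mixture of ciliated, secretory and any adhering cells. In such bulk samples fewer cells of a type and less RNA per cell cannot be told apart.

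The ampulla is the wide, deeply folded upper part of the oviduct in which the oocyte is fertilized. The isthmus is the narrow, muscular part that joins the uterus, and in cattle sperm bind to its epithelium and are held there until ovulation. Both are lined by ciliated cells, which move the gametes and luminal fluid, and by secretory cells, which make that fluid together with transporters of chloride, bicarbonate and water.

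The 6 FP arrays were alike in scale, as the quantile normalization of the deposited values brings about, with medians of log2 signal from 7.33 to 7.37. Arrays of 1 segment correlated at 0.9862 to 0.9900, and arrays of different segments at 0.9721 to 0.9856. No detection calls were given with the values. Signals at or below the first quartile of the FP arrays (5.68 to 5.81) may be near background, and differences that involve such a mean have an uncertain size. The markers of epithelium were high in both segments. The cell adhesion gene EPCAM had a mean log2 signal of 11.75 ± 0.10 (SD, n = 3) in the ampulla and 12.03 ± 0.08 in the isthmus, and the oviductal glycoprotein OVGP1 had 13.37 ± 0.07 and 13.32 ± 0.07. Of 15 measured epithelial markers, only claudin 4 (CLDN4) was called, as described below. The labelled heifer numbers did not show in the FP values: after removal of group means, the ampulla and isthmus of the same FP heifer correlated at -0.05, -0.17 and -0.10, against 0.26, 0.22 and 0.37 in the LP. A shifted match gave higher values in the FP, at 0.24 for ampulla 1 with isthmus 2, 0.24 for ampulla 2 with isthmus 3 and 0.16 for ampulla 3 with isthmus 1, and these arrays also follow each other in the order of deposit. Whether the FP animal numbers are shifted between the segments was not tested. The labelled pairs were kept, and the heifer term, the fits without 1 heifer and every value given by FP heifer rest on them. Calls that end when the heifer term is left out of the fit are named where they occur.

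A gene was called when its Benjamini-Hochberg adjusted p in limma was under 0.05 and the segments differed by at least 1.5-fold. In the FP, 290 genes were called higher in the isthmus (1.61% of the genes tested) and 161 higher in the ampulla (0.894%), together 451 (2.5%). The 3 isthmus arrays did not overlap the 3 ampulla arrays for 289 of the 290 and for all 161, where 28.6% of all genes were free of overlap. The exception was the potassium channel KCNMA1. The isthmus genes differed by more: 81 of them exceeded 4-fold and 29 exceeded 8-fold, against 25 and 6 of the ampulla genes. Their median log2 difference was 1.30, and that of the ampulla genes was -0.97, with -0.01 over all genes. A mean at or below that quartile in the other segment was found for 38 isthmus genes and 12 ampulla genes. Not every such gene named below is marked. Over all probesets 566 were called (2.11%), 356 toward the isthmus (1.33%) and 210 toward the ampulla (0.784%), of which 81 had no symbol and 22 had several. At an unadjusted p under 0.05 in limma, 1692 of the 18010 genes were higher in the isthmus. In either direction 4766 of the 26773 probesets had such a p. List counts at an unadjusted p toward the isthmus are to be read against the 1692 genes. The number of genes with such a p toward the ampulla was not counted, so list counts in that direction have no matching share. Calls in each list below are to be read against the 2.5% of all genes called.

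The counts depended on which heifers were included. When each of the 6 heifers was left out in turn, the 566 probesets fell to 99 without FP heifer 2, to 256 without FP heifer 3 and to 307 without FP heifer 1. Of the 451 genes, 58 isthmus and 11 ampulla genes passed in all 6 of these fits, and such calls are said below to have held. For the other named genes the heifers whose removal ended the call are given. No called gene turned its direction in any setting that was run. For genes whose segments do not overlap, leaving out a heifer or the heifer term could not change the direction.

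**Figure D1:**
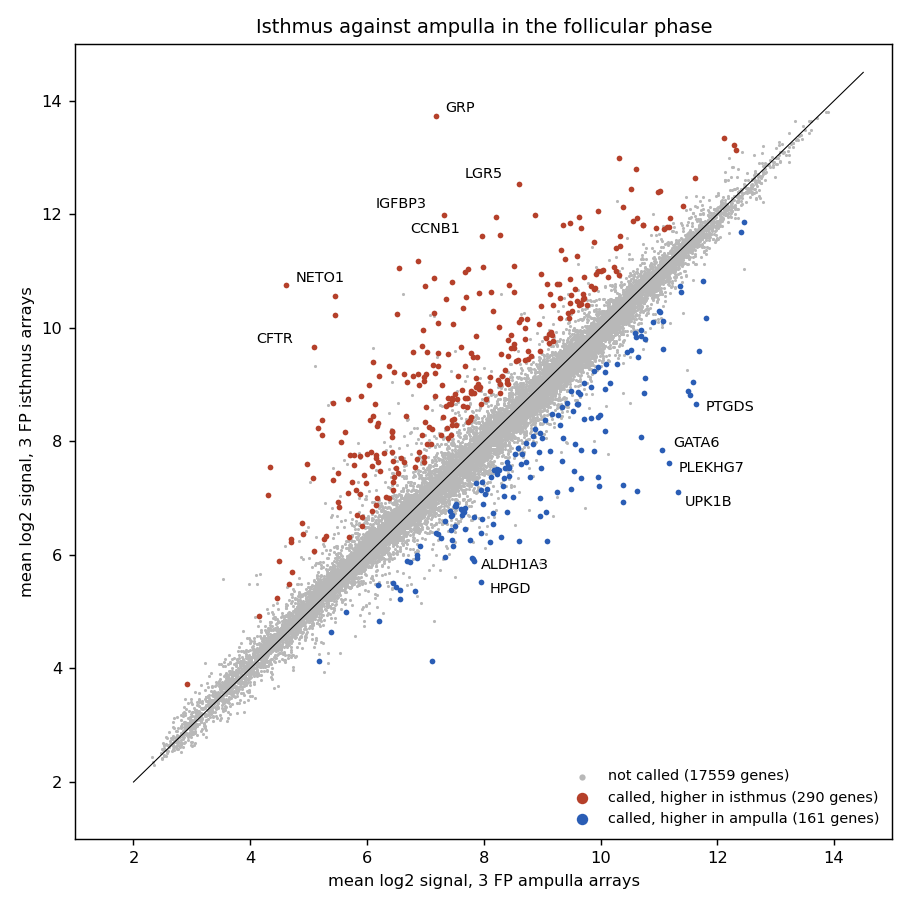
Mean log2 signal of each of 18010 genes in the 3 FP ampulla arrays (horizontal) and the 3 FP isthmus arrays (vertical), with the line of equal signal. Red points are the 290 genes called higher in the isthmus, which reach further from the line than the 161 blue points called higher in the ampulla.

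The gene furthest from equality was GRP, which encodes gastrin-releasing peptide, a bombesin-like neuropeptide. Its log2 signal was 7.31, 7.10 and 7.16 in the ampulla of FP heifers 1 to 3 and 13.78, 13.86 and 13.54 in the isthmus. All 3 isthmus values lay near the top of the arrays' range, a 92.9-fold difference (log2 difference 6.54, SE 0.22, adjusted p = 0.000189). NETO1, an auxiliary subunit of glutamate receptors, read 4.91, 4.36 and 4.59 in the ampulla and 10.67, 11.21 and 10.37 in the isthmus. The ampulla values of NETO1 lay under the lower quartile, so that its log2 difference of 6.13 (SE 0.31, adjusted p = 0.000673) has an uncertain size. GPM6B, a membrane glycoprotein of neurons and glia, read 5.22, 6.03 and 5.14 in the ampulla against 10.70, 10.36 and 9.60 in the isthmus, a log2 difference of 4.76 (SE 0.25, adjusted p = 0.000809). Its ampulla values in FP heifers 1 and 3 lay under the lower quartile, so this size is uncertain too. All of these calls held.

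Several secreted or endocytic proteins followed. IGFBP3, the main carrier of insulin-like growth factors in serum, read 7.27, 7.51 and 7.20 in the ampulla and 12.42, 12.03 and 11.52 in the isthmus (25.4-fold, log2 difference 4.67, SE 0.18, adjusted p = 0.000281). LRP2, the endocytic receptor megalin, had the smallest p of all probesets, with 7.01, 6.50 and 6.11 in the ampulla and 11.72, 11.08 and 10.34 in the isthmus (log2 difference 4.51, SE 0.12, adjusted p = 0.000157). By the labelled numbers the 3 heifers kept the same order in both segments for LRP2. BPIFB1, a secreted protein of airway and other mucosal surfaces, read 7.15, 6.77 and 6.69 against 11.13, 11.45 and 10.94 (log2 difference 4.30, SE 0.17, adjusted p = 0.000302). CLEC3A, a C-type lectin known from cartilage, read 6.79, 6.38 and 6.36 against 10.90, 10.28 and 9.52 (log2 difference 3.72, SE 0.21, adjusted p = 0.000839). The groups did not overlap for any of these 4 genes, and all 4 calls held. The tyrosine kinase of cytokine receptors JAK3 also held, with means of 7.15 ± 0.29 and 10.88 ± 0.51 (SD, n = 3) and a log2 difference of 3.73 (SE 0.15, adjusted p = 0.000296).

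Those ion transport genes of the list below that were called were higher in the isthmus. The chloride and bicarbonate channel CFTR read 5.50, 4.75 and 5.05 in the ampulla and 10.36, 9.68 and 8.96 in the isthmus. Its log2 difference was 4.57 (SE 0.20, adjusted p = 0.000469), the call held, and the ampulla level lay under the lower quartile. Of 38 measured genes for ion and bicarbonate transport, 4 were called higher in the isthmus and 0 in the ampulla (8 and 0 at an unadjusted p under 0.05), and the median log2 difference was 0.11. Beside CFTR these were SLC12A2, which brings chloride into the cell (2.31, adjusted p = 0.015, ended without FP heifer 1 or 2, adjusted p up to 0.103), and the sodium pump subunit ATP1B1 (1.61, adjusted p = 0.0222, ended without any 1 FP heifer, adjusted p up to 0.115). KCNMA1 had a difference of 0.99 (adjusted p = 0.0468), and its call ended with no heifer term (adjusted p = 0.124) and without FP heifer 1 or 3 or any LP heifer (adjusted p up to 0.145). Its isthmus value of 6.81 in FP heifer 2 lay under the ampulla value of 6.84 in FP heifer 1.

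Water channels were called in the same direction. Of 10 aquaporins, 3 were called higher in the isthmus and none in the ampulla (6 and 0 at an unadjusted p under 0.05), with a median log2 difference of 0.29. AQP5, a water channel of gland cells, was abundant in both segments, at 10.54, 10.17 and 10.07 in the ampulla and 11.52, 11.39 and 11.31 in the isthmus. The difference of 1.15 (SE 0.11, adjusted p = 0.00698) was 2.22-fold and ended without FP heifer 2 (adjusted p = 0.0649). Its neighbour AQP6 was higher by 1.09 (adjusted p = 0.0135, ended without FP heifer 2 or 3, adjusted p up to 0.0656). AQP9, which also passes glycerol, was higher by 1.22 (adjusted p = 0.0424), a call that ended without FP heifer 2 or 3 or any LP heifer (adjusted p up to 0.19).

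Among 33 carriers of glucose and amino acids, 4 were called higher in the isthmus and 0 in the ampulla (8 and 1 at an unadjusted p under 0.05), with a median of 0.09. SLC1A1, which takes up glutamate and aspartate, read 8.66, 8.40 and 7.76 in the ampulla and 11.65, 11.70 and 11.57 in the isthmus. The isthmus values of SLC1A1 differed from each other by little, and the difference of 3.37 (SE 0.15, adjusted p = 0.000496) held. The fructose carrier SLC2A5 was higher by 2.32 (adjusted p = 0.0187, ended without FP heifer 1 or 2, adjusted p up to 0.123), and SLC1A4, a carrier of alanine, serine and cysteine, by 1.74 (adjusted p = 0.0098, ended without FP heifer 2 or 3, adjusted p up to 0.08). SLC43A1, a carrier of large neutral amino acids, was higher by 0.60 (adjusted p = 0.023, ended without any 1 FP heifer or LP heifer 2, adjusted p up to 0.137).

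**Figure D2:**
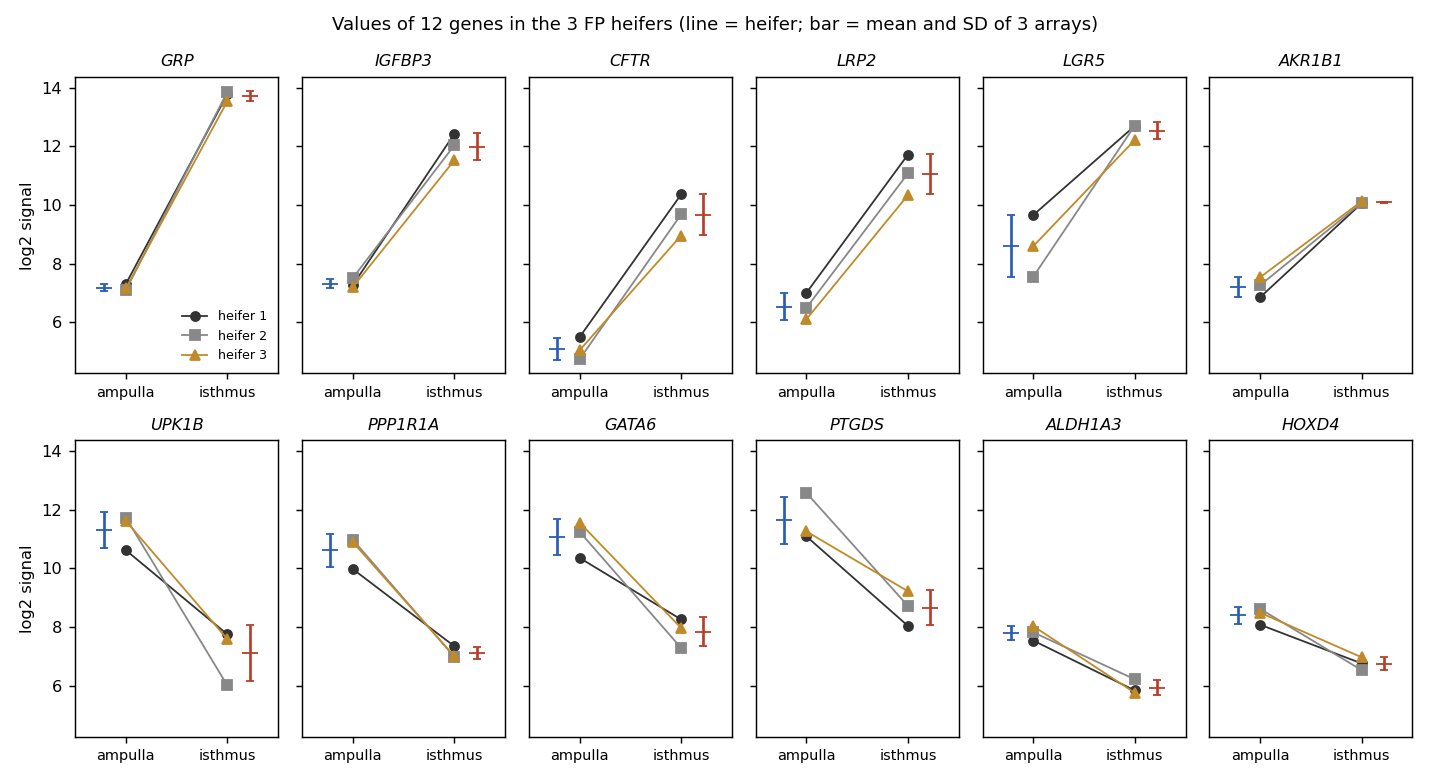
Log2 signal of 12 genes in the ampulla and isthmus of the 3 FP heifers, 1 line per heifer as labelled, with the mean and SD of each group beside the points. GRP reached at most 7.31 in the ampulla arrays and at least 13.54 in the isthmus arrays, while the ampulla values of LGR5 spread from 7.56 to 9.66.

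Of 33 genes listed for luminal defence, 3 were called higher in the isthmus and none in the ampulla (10 and 1 at an unadjusted p under 0.05), with a median of 0.28. Beside BPIFB1 these were its relative BPIFA1 (2.44, SE 0.23, adjusted p = 0.00672), which ended without FP heifer 2 (adjusted p = 0.0563), and the calcium-binding protein S100A4 (1.25, adjusted p = 0.0469), which ended without any 1 FP heifer, LP heifer 1 or LP heifer 3 (adjusted p up to 0.197). S100A4 is not an established defence protein, so that only the BPIF calls bear on luminal defence. BPIFA1 had an ampulla mean of 5.55, under the lower quartile. The iron-binding protein lactoferrin (LTF) had a difference of 1.49 that did not pass (adjusted p = 0.0688). Ribonucleases were a further group, picked after their values were seen except for the first. LOC282340, which RefSeq lists with the synonym RNASE1, read 5.62, 5.57 and 5.18 in the ampulla and 10.98, 10.50 and 10.20 in the isthmus, a log2 difference of 5.10 (SE 0.17, adjusted p = 0.000189) that held. Its ampulla values lay under the lower quartile, so the size is uncertain. RNASE4, ANG and ANG2, which are next to each other among the measured genes, were higher by 1.49, 2.35 and 1.40. The call of ANG, an angiogenic ribonuclease, held (SE 0.14, adjusted p = 0.00116), that of RNASE4 ended without FP heifer 2 or 3 (adjusted p up to 0.0974) and that of ANG2 without any 1 FP heifer (adjusted p up to 0.1). ANG2 had an ampulla mean of 4.50, under the lower quartile. These ribonuclease genes are similar in sequence, and whether their probes also bound each other's transcripts was not tested.

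Among the genes of signals that pattern epithelia, some ligands and some receptors were called. Which cells of the pellets express them was not tested. LGR5, a receptor of R-spondins that raises WNT signalling and marks stem cells in several epithelia, read 9.66, 7.56 and 8.60 in the ampulla and 12.70, 12.71 and 12.22 in the isthmus. The difference of 3.94 (SE 0.47, adjusted p = 0.015) ended without FP heifer 2 or 3 (adjusted p up to 0.0686). The related receptor LGR4 was higher in the isthmus by 0.74 (adjusted p = 0.0316, ended without any 1 FP heifer, LP heifer 1 or LP heifer 2, adjusted p up to 0.182). SFRP2, which binds secreted WNT proteins, was higher by 2.16 (adjusted p = 0.0196, ended without FP heifer 1 or 2, adjusted p up to 0.0869). The fourth called WNT gene, the transcription factor TCF7, was higher by 0.91 (adjusted p = 0.0494), and this call ended without any 1 of the 6 heifers (adjusted p up to 0.145) and with no heifer term (adjusted p = 0.0749). In all, 4 of 41 measured WNT genes were called higher in the isthmus and 0 in the ampulla (8 and 2 at an unadjusted p under 0.05), with a median of 0.14.

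The bone morphogenetic protein BMP5 read 4.65, 4.08 and 4.28 in the ampulla, all under the lower quartile, and 8.23, 6.51 and 7.91 in the isthmus. Its difference of 3.21 (SE 0.31, adjusted p = 0.00672) held. CHRDL1, a secreted antagonist of BMPs, was higher in the isthmus too, with means of 6.99 ± 0.45 and 10.73 ± 0.60 (SD, n = 3), a difference of 3.74 (SE 0.35, adjusted p = 0.00625) that ended without FP heifer 2 (adjusted p = 0.0519). Of 38 BMP and TGF-beta genes, 3 were called higher in the isthmus and 1 in the ampulla, with a median of 0.12. The other 2 were SMAD7, an inhibitor inside the cell (0.71, adjusted p = 0.0403), and ID1, a target of BMP signals (-0.75, adjusted p = 0.0335). Both ended with no heifer term (adjusted p = 0.101 and 0.124), SMAD7 also without any 1 heifer (adjusted p up to 0.197) and ID1 without any 1 heifer except FP heifer 1 (adjusted p up to 0.187). ID1 lay under the lower quartile in both segments, with means of 5.39 in the ampulla and 4.64 in the isthmus.

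Indian hedgehog (IHH), which in the mouse uterus is induced by progesterone, read 6.73, 6.35 and 6.21 in the ampulla and 8.46, 7.98 and 7.78 in the isthmus. Its difference of 1.65 (SE 0.08, adjusted p = 0.000696) held, and the other 13 measured hedgehog genes were not called, among them the receptor PTCH1 (0.48, adjusted p = 0.0496, under 1.5-fold). SPRY1, which dampens FGF signals, was higher in the isthmus by 1.19 (SE 0.11, adjusted p = 0.00678) and held. FGFR1, an FGF receptor, was higher by 1.22 (adjusted p = 0.0468, ended without FP heifer 1 or 2 or any LP heifer, adjusted p up to 0.232). The EGF family had 1 call among 11, the ligand NRG1, which was higher in the ampulla (-1.46, adjusted p = 0.0238), and that call ended with no heifer term (adjusted p = 0.0557) and without FP heifer 1 or 2 or LP heifer 2 or 3 (adjusted p up to 0.0868).

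Peptide signals beside GRP included TAC1, the precursor of substance P (2.29, adjusted p = 0.042, ended without FP heifer 1 or 3 or any LP heifer, adjusted p up to 0.147), and the neurokinin receptor TACR3 (1.52, adjusted p = 0.0165, ended without FP heifer 2 or 3, adjusted p up to 0.0591). NPPC, the C-type natriuretic peptide, was higher by 1.28 (adjusted p = 0.0371, ended without FP heifer 1 or 2 or any LP heifer, adjusted p up to 0.197). With the guanylate cyclase subunit GUCY1A1 (1.10, adjusted p = 0.0274, ended without any 1 FP heifer, LP heifer 1 or LP heifer 3, adjusted p up to 0.134), 4 of 34 genes of this list were higher in the isthmus and 0 in the ampulla, with a median of 0.12. Of 44 guidance and adhesion molecules known from axons, 4 were higher in the isthmus and 1 in the ampulla, with a median of 0.02. SEMA6A, a transmembrane semaphorin, led them with 7.71, 7.70 and 7.68 in the ampulla and 11.10, 10.23 and 10.30 in the isthmus (2.85, SE 0.24, adjusted p = 0.00423), and its call held. EFNA5, a membrane-bound ephrin, was higher in the ampulla (-1.14, adjusted p = 0.0204, ended without FP heifer 2 or 3, adjusted p up to 0.0824).

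Junction genes split by member. CLDN8, a claudin that seals against cations, read 7.84, 7.95 and 7.83 in the ampulla and 9.34, 9.73 and 9.35 in the isthmus, a difference of 1.60 (SE 0.11, adjusted p = 0.00205) that held. CLDN4 was higher in the isthmus by 1.09 (adjusted p = 0.0187, ended without FP heifer 1 or 2, adjusted p up to 0.0973) and CLDN10 by 1.41 (adjusted p = 0.012, ended without FP heifer 2 or 3, adjusted p up to 0.0525). CLDN11, known from myelin and Sertoli cells, went the other way, with 11.08, 11.29 and 12.13 in the ampulla and 9.22, 9.07 and 8.34 in the isthmus. That difference of -2.63 (SE 0.42, adjusted p = 0.0335) ended without any 1 FP heifer, LP heifer 1 or LP heifer 2 (adjusted p up to 0.143). With the desmosomal cadherin DSC2 (0.77, adjusted p = 0.0135, ended without FP heifer 2 or 3, adjusted p up to 0.091) and connexin 43, GJA1 (1.09, adjusted p = 0.0218), 5 of 35 junction genes were higher in the isthmus and 1 in the ampulla, with a median of 0.09. The GJA1 call ended with no heifer term (adjusted p = 0.0658) and without any 1 FP heifer (adjusted p up to 0.14).

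Of 43 mucins and glycosyltransferases, 4 were called higher in the isthmus and 1 in the ampulla (14 and 7 at an unadjusted p under 0.05), with a median of 0.17. The membrane mucin MUC4 read 9.09, 8.67 and 10.31 in the ampulla and 12.58, 11.31 and 11.54 in the isthmus. Its difference of 2.46 (SE 0.39, adjusted p = 0.0332) ended without FP heifer 1 or 2 or any LP heifer (adjusted p up to 0.186). MUC1 was higher by 0.83 (adjusted p = 0.0354, ended without any 1 FP heifer, LP heifer 1 or LP heifer 3, adjusted p up to 0.192). HS3ST1, which sulfates heparan sulfate, was higher in the ampulla (-1.69, adjusted p = 0.00826, ended without FP heifer 2, adjusted p = 0.0721). Larger differences in this list missed the threshold: MUC15 at 3.55 (adjusted p = 0.0576), the sulfotransferase CHST4 at 3.14 (adjusted p = 0.0528) and the fucosyltransferase FUT1 at -2.23 (adjusted p = 0.053), all with no overlap between the segments.

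**Figure D3:**
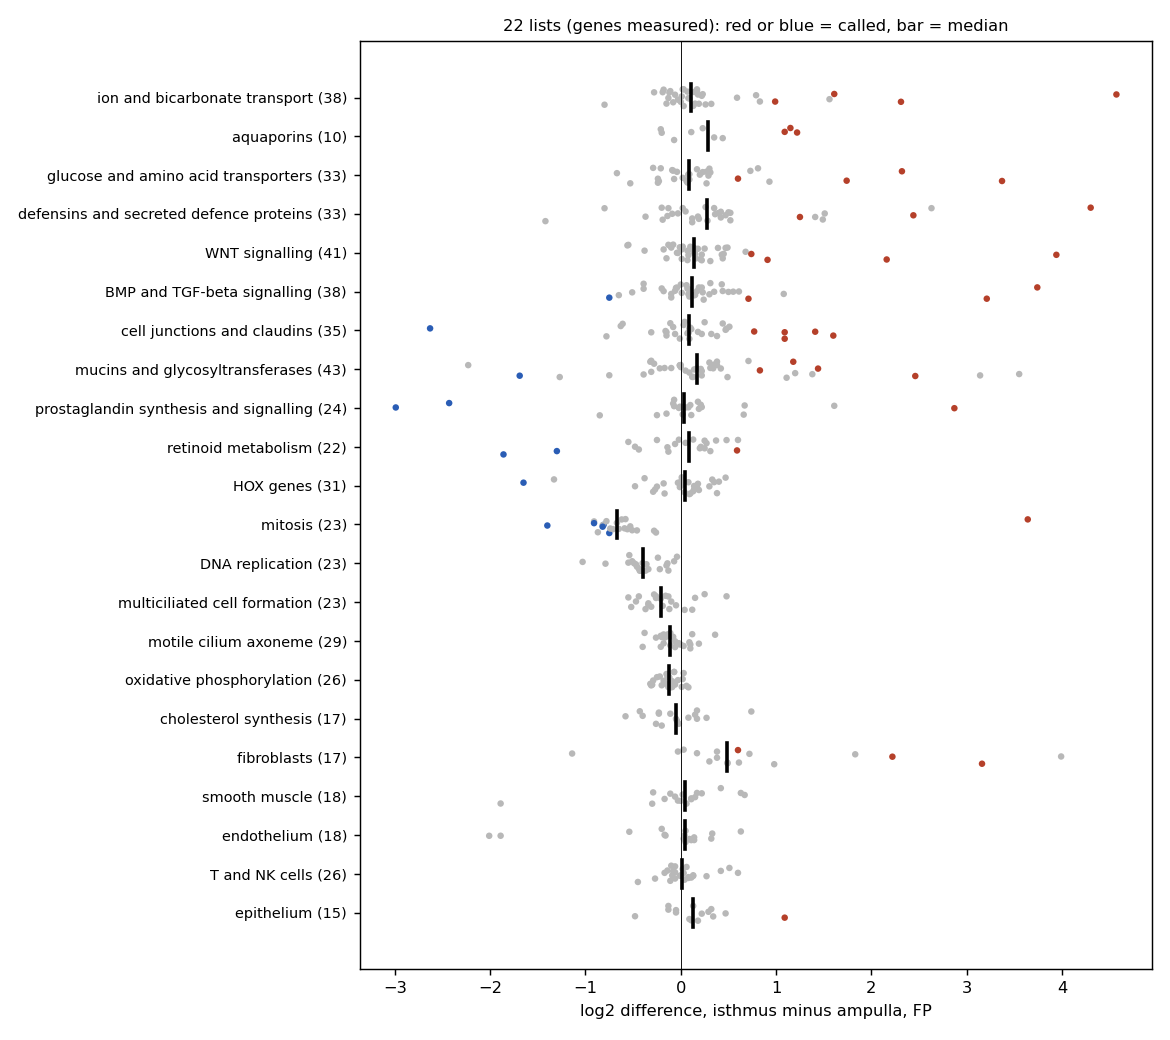
Log2 difference, isthmus minus ampulla, of every measured gene of 22 lists, with called genes in red (isthmus) or blue (ampulla), other genes in grey and the median as a bar. The bars farthest from 0 are those of mitosis (-0.67), the fibroblast markers (0.49) and DNA replication (-0.40).

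Some matrix genes and some markers of fibroblasts were higher in the isthmus. Of 44 matrix and remodelling genes, 3 were called higher in the isthmus and 1 in the ampulla (12 and 3 at an unadjusted p under 0.05), with a median of 0.23. The proteinase inhibitor TIMP2 read 11.25, 10.80 and 10.90 in the ampulla and 12.70, 12.38 and 12.09 in the isthmus (1.40, SE 0.11, adjusted p = 0.00382) and held. The proteoglycan decorin (DCN) read 6.88, 7.05 and 8.12 against 11.42, 9.75 and 10.35 (3.16, SE 0.48, adjusted p = 0.0285), and this ended without any 1 FP heifer, LP heifer 1 or LP heifer 2 (adjusted p up to 0.134). The collagenase MMP2 was higher by 0.92 (adjusted p = 0.0378), which ended without any 1 of the 6 heifers (adjusted p up to 0.118), and TIMP1 was higher in the ampulla (-0.80, adjusted p = 0.0369), which ended without any 1 heifer except FP heifer 1 (adjusted p up to 0.193). CCN2, a matrix-bound growth regulator, read 9.62, 8.20 and 6.81 in the ampulla and 11.84, 11.85 and 12.21 in the isthmus, and its difference of 3.76 (SE 0.55, adjusted p = 0.0254) ended without FP heifer 2 or 3 or LP heifer 3 (adjusted p up to 0.145).

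Of 17 fibroblast markers, 3 were called higher in the isthmus, DCN, the microfibril gene FBN1 (2.22, SE 0.18, adjusted p = 0.00382, held) and CD34 (0.60, adjusted p = 0.0196, ended without any 1 FP heifer, adjusted p up to 0.0974, and with no heifer term, adjusted p = 0.0595). At an unadjusted p under 0.05, 10 of the 17 were higher in the isthmus and 1 in the ampulla, and 15 of the 17 had a difference above 0. The median of the list was 0.49, and its summed level on the log2 scale was 11.87 to 12.20 in the ampulla arrays and 12.21 to 13.45 in the isthmus arrays. Lumican (LUM) read 6.15, 6.39 and 7.29 against 11.94, 9.89 and 9.98, highest in the isthmus of FP heifer 1, and did not pass (3.99, adjusted p = 0.131). The collagens COL1A1, COL1A2 and COL3A1 differed by 0.61, 0.49 and 0.98 and were not called. The part of adhering stroma in the matrix genes, and in the signalling and defence genes given before, was not tested.

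The other cell type lists are short, and with 2.5% of all genes called, few or no calls in them are near that share. None of 18 smooth muscle, 18 endothelial, 26 T and NK cell, 12 B cell, 10 mast cell and granulocyte or 7 erythrocyte markers was called in either direction, with 3, 3, 2, 0, 1 and 0 higher in the isthmus and 1, 3, 0, 2, 0 and 0 higher in the ampulla at an unadjusted p under 0.05. By the F-test and LSD 1 smooth muscle marker and 1 endothelial marker were higher in the isthmus and 2 endothelial markers in the ampulla. The endothelial receptor KDR was lower in the isthmus by a difference that missed the threshold (-1.89, adjusted p = 0.0596). FLT3, a receptor of dendritic cell precursors, was the 1 called gene of 22 macrophage and dendritic cell markers (1.42, SE 0.15, adjusted p = 0.00935, ended without FP heifer 2, adjusted p = 0.073). Of 10 nerve and glia markers only GFAP, an intermediate filament of astrocytes, was called, with 8.23, 7.86 and 8.28 in the ampulla and 11.28, 10.45 and 10.17 in the isthmus (2.51, SE 0.23, adjusted p = 0.00587, ended without FP heifer 2, adjusted p = 0.0542). The Schwann cell factor SOX10 was at 6.31 ± 0.06 and 6.36 ± 0.18 (SD, n = 3). Of 44 chemokines, cytokines and receptors, CXCL14 was higher in the isthmus (2.12, SE 0.20, adjusted p = 0.00643, held) and CXCL10, an interferon-induced chemokine, in the ampulla (-0.97, adjusted p = 0.0364), a call lost with no heifer term (adjusted p = 0.521) and without any 1 FP heifer or LP heifer 2 (adjusted p up to 0.176).

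On the ampulla side the largest difference was that of UPK1B, a tetraspanin of the urothelial plaque that is also found in mesothelium. It read 10.62, 11.73 and 11.62 in the ampulla and 7.75, 6.01 and 7.59 in the isthmus, an 18.5-fold difference (-4.21, SE 0.47, adjusted p = 0.012) that ended without FP heifer 3 (adjusted p = 0.0561). The other 10 measured mesothelial markers were not called, and mesothelin (MSLN) was at 11.78 ± 0.42 in the ampulla and 11.13 ± 0.12 in the isthmus (SD, n = 3). The summed level of the mesothelial list was 14.01 to 14.18 and 13.67 to 13.74 in the segments, and its part in the UPK1B difference was not tested. GATA6, a transcription factor of endoderm and gonad, read 10.36, 11.25 and 11.56 in the ampulla and 8.26, 7.29 and 7.97 in the isthmus (-3.22, SE 0.43, adjusted p = 0.0193, ended without FP heifer 2 or 3, adjusted p up to 0.122).

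Of the ampulla genes 4 of the 6 largest differences held. PLEKHG7, which carries a pleckstrin homology domain, read 10.65, 11.21 and 11.69 in the ampulla and 7.10, 7.60 and 8.17 in the isthmus (-3.56, SE 0.26, adjusted p = 0.00247). PPP1R1A, an inhibitor of protein phosphatase 1, read 9.98, 10.98 and 10.90 against 7.35, 6.99 and 7.01 (-3.50, SE 0.28, adjusted p = 0.00374). CBLN4, a secreted cerebellin that organizes synapses in brain, read 9.49, 10.95 and 10.74 against 6.74, 6.79 and 7.26 (-3.46, SE 0.26, adjusted p = 0.00273). In each of these 3 genes the lowest ampulla value was that of FP heifer 1. SERPINE3, a member of the serpin family, had means of 10.39 ± 0.63 and 7.24 ± 0.32 (SD, n = 3; -3.15, SE 0.34, adjusted p = 0.01). Another serpin, the elastase inhibitor SERPINA1, was higher in the ampulla (-2.84, adjusted p = 0.0196), which ended without FP heifer 2 or 3 (adjusted p up to 0.132).

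Further ampulla genes were the growth factor pleiotrophin, PTN (-2.72, adjusted p = 0.0135, ended without FP heifer 2 or 3, adjusted p up to 0.0892), the membrane lectin CHODL (-2.76, adjusted p = 0.00698, ended without FP heifer 2, adjusted p = 0.0543) and the melanosomal transporter SLC45A2 (-2.61, adjusted p = 0.00678, ended without FP heifer 2, adjusted p = 0.0598). Of 34 serine proteases and their inhibitors 3 were higher in the ampulla and 2 in the isthmus, with a median of 0.11. On the isthmus side were SERPINB12, an inhibitor inside the cell (1.68, SE 0.12, adjusted p = 0.00273), which passed without each heifer but not with no heifer term (adjusted p = 0.0722), and the membrane protease TMPRSS2 (1.38, adjusted p = 0.0193), which ended without FP heifer 3 (adjusted p = 0.06) and with no heifer term (adjusted p = 0.0841).

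Prostaglandin genes went in opposite directions. AKR1B1, an aldose reductase that makes prostaglandin F2α in the bovine endometrium, read 6.86, 7.27 and 7.54 in the ampulla and 10.06, 10.08 and 10.13 in the isthmus (2.87, SE 0.14, adjusted p = 0.000621), and the call held. PTGDS, which makes prostaglandin D2, read 11.09, 12.57 and 11.26 in the ampulla and 8.04, 8.72 and 9.22 in the isthmus (-2.99, SE 0.35, adjusted p = 0.0135, ended without FP heifer 1 or 2, adjusted p up to 0.0667). HPGD, which inactivates prostaglandins, read 7.05, 8.86 and 7.93 in the ampulla and 5.50, 5.55 and 5.53 in the isthmus, where it lay under the lower quartile (-2.43, SE 0.37, adjusted p = 0.0274, ended without FP heifer 2 or 3 or LP heifer 1, adjusted p up to 0.134). The other 21 of 24 measured genes of the list were not called, and its median was 0.04.

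Of 22 retinoid genes 2 were higher in the ampulla and 1 in the isthmus, with a median of 0.09. ALDH1A3, which makes retinoic acid, read 7.54, 7.82 and 8.03 in the ampulla and 5.84, 6.22 and 5.76 in the isthmus (-1.86, SE 0.18, adjusted p = 0.00663), and held. CRABP2, which carries retinoic acid to its nuclear receptor, read 8.33, 8.31 and 8.37 against 7.21, 7.03 and 6.86 (-1.30, SE 0.15, adjusted p = 0.012, ended without FP heifer 2 or 3, adjusted p up to 0.086). The receptor RARA was higher in the isthmus by 0.59 (adjusted p = 0.0473), which ended with no heifer term (adjusted p = 0.0589) and without any 1 FP heifer, LP heifer 1 or LP heifer 2 (adjusted p up to 0.218). The 2 other enzymes that make retinoic acid, ALDH1A1 (0.60, adjusted p = 0.247) and ALDH1A2 (-0.44, adjusted p = 0.274), were not called.

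Of 11 measured steroid hormone receptors 1 was called in each direction, where 2.5% of all genes were called. The estrogen receptor ESR2 read 8.29, 8.44 and 8.79 in the ampulla and 9.65, 9.71 and 9.56 in the isthmus (1.13, SE 0.18, adjusted p = 0.0348), and this ended without any 1 FP heifer, LP heifer 1 or LP heifer 3 (adjusted p up to 0.192). ESR1, at 12.33 ± 0.16 and 12.65 ± 0.05 (SD, n = 3), was not called (0.32, adjusted p = 0.217). PAQR8, a membrane progestin receptor, was higher in the ampulla (-1.02, SE 0.11, adjusted p = 0.0123, ended without FP heifer 2 or 3, adjusted p up to 0.0832). The nuclear progesterone receptor PGR read 11.04, 9.89 and 10.44 against 11.67, 11.76 and 11.32 on its brighter probeset, which did not pass (1.13, adjusted p = 0.0677), while its second probeset was called higher in the isthmus by 0.83.

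Of 37 measured transcription factors of the reproductive tract 1 was called in each direction, ELF5 and GATA6, where 2.5% of all genes were called. Homeobox genes pattern the tract along its length. Of 31 measured HOX genes only HOXD4 was called, with 8.08, 8.62 and 8.49 in the ampulla and 6.76, 6.53 and 6.97 in the isthmus (-1.65, SE 0.19, adjusted p = 0.0135, ended without FP heifer 2 or 3, adjusted p up to 0.0743). HOXD3 read 6.44, 7.36 and 7.40 against 5.53, 5.56 and 6.14 and did not pass (-1.33, adjusted p = 0.0894), and the median of the HOX genes was 0.04. ELF5, an epithelial factor of mammary gland and trophoblast, was higher in the isthmus, with 7.19, 6.40 and 6.46 in the ampulla and 8.63, 9.42 and 9.10 in the isthmus (2.37, SE 0.29, adjusted p = 0.0153, ended without FP heifer 2 or 3, adjusted p up to 0.0892). The Müllerian duct factor PAX8 read 8.62, 8.76 and 8.59 against 9.20, 8.84 and 8.94 (0.34, adjusted p = 0.27).

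Most measured genes of the mitosis and DNA replication lists had lower values in the isthmus, and 5 of the mitosis list passed the test. Of 23 measured mitosis genes 22 had a log2 difference under 0, 20 of these at an unadjusted p under 0.05, and the median was -0.67. The mean level of the list was 7.66 to 8.32 in the ampulla arrays and 7.51 to 7.70 in the isthmus arrays, so the segments overlapped. Genes of 1 list were read in the same 3 heifers and can vary together, so these counts are not independent. The 5 called higher in the ampulla were the condensin subunits NCAPG (-1.40, SE 0.19, adjusted p = 0.0203) and NCAPH (-0.82, adjusted p = 0.0252), the Aurora kinases AURKA (-0.81, SE 0.09, adjusted p = 0.0098) and AURKB (-0.75, SE 0.09, adjusted p = 0.0148), and the spindle motor KIF11 (-0.91, adjusted p = 0.0435). NCAPG read 8.34, 9.20 and 8.82 in the ampulla and 7.15, 7.33 and 7.67 in the isthmus. The F-test and LSD of the study's methods called 9 mitosis genes higher in the ampulla. With no heifer term only NCAPG of the 5 was called, and the others had adjusted p = 0.136, 0.0505, 0.0695 and 0.204 in the order given. Without FP heifer 2 all 5 calls ended, as they did without FP heifer 3 except AURKA (adjusted p up to 0.1 for NCAPG, 0.159 for NCAPH, 0.0772 for AURKA, 0.1 for AURKB and 0.214 for KIF11). NCAPG also ended without FP heifer 1, NCAPH without LP heifer 1 and KIF11 without any 1 LP heifer. The proliferation marker MKI67 read 8.20, 8.58 and 8.96 against 7.76, 8.24 and 7.51 and was not called (-0.74, adjusted p = 0.275). All 23 measured genes of DNA replication had a difference under 0, with a median of -0.40, and none was called in limma (8 at an unadjusted p under 0.05, and 1 by the F-test and LSD). The ribonucleotide reductase subunit RRM2 was nearest (-1.03, adjusted p = 0.0604). The mean level of the replication list overlapped too, at 8.64 to 9.32 in the ampulla arrays and 8.39 to 8.84 in the isthmus arrays. Further cell division genes outside the 2 lists were called higher in the ampulla, picked after their values were seen. Among them were CDC25C (adjusted p = 0.02) and SPAG5 (adjusted p = 0.0225), which ended without any 1 FP heifer (adjusted p up to 0.128 and 0.137). CKS2 (adjusted p = 0.0123) ended without FP heifer 1 or 2 (adjusted p up to 0.0892). CENPH, described below, was called toward the isthmus.

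The gene of the mitosis list that was higher in the isthmus was cyclin B1 (CCNB1), which with CDK1 drives entry into mitosis. It read 7.67, 7.96 and 8.29 in the ampulla and 12.05, 11.41 and 11.38 in the isthmus, a 12.5-fold difference toward the isthmus (3.64, SE 0.25, adjusted p = 0.00205) that held. Its partner CDK1 had a difference of -0.59 (adjusted p = 0.0713). CCNB1 lay in the longest run of adjacent measured genes called the same way, 4 genes in the RefSeq order, which was noticed after the values were seen. Beside it CDK7 was higher in the isthmus by 1.41 (SE 0.13, adjusted p = 0.00627, held), MRPS36 by 2.10 (SE 0.11, adjusted p = 0.000839, held) and CENPH by 0.72 (SE 0.12, adjusted p = 0.0324, ended without any 1 FP heifer, LP heifer 1 or LP heifer 2, adjusted p up to 0.126). The genes on either side were not called, CCDC125 at 0.36 (adjusted p = 0.193) and SLC30A5 at 0.47 (adjusted p = 0.0468, under 1.5-fold). The same 4 genes differed in the LP by 2.20, 2.41, 1.81 and 4.72 for CDK7, MRPS36, CENPH and CCNB1.

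**Figure D4:**
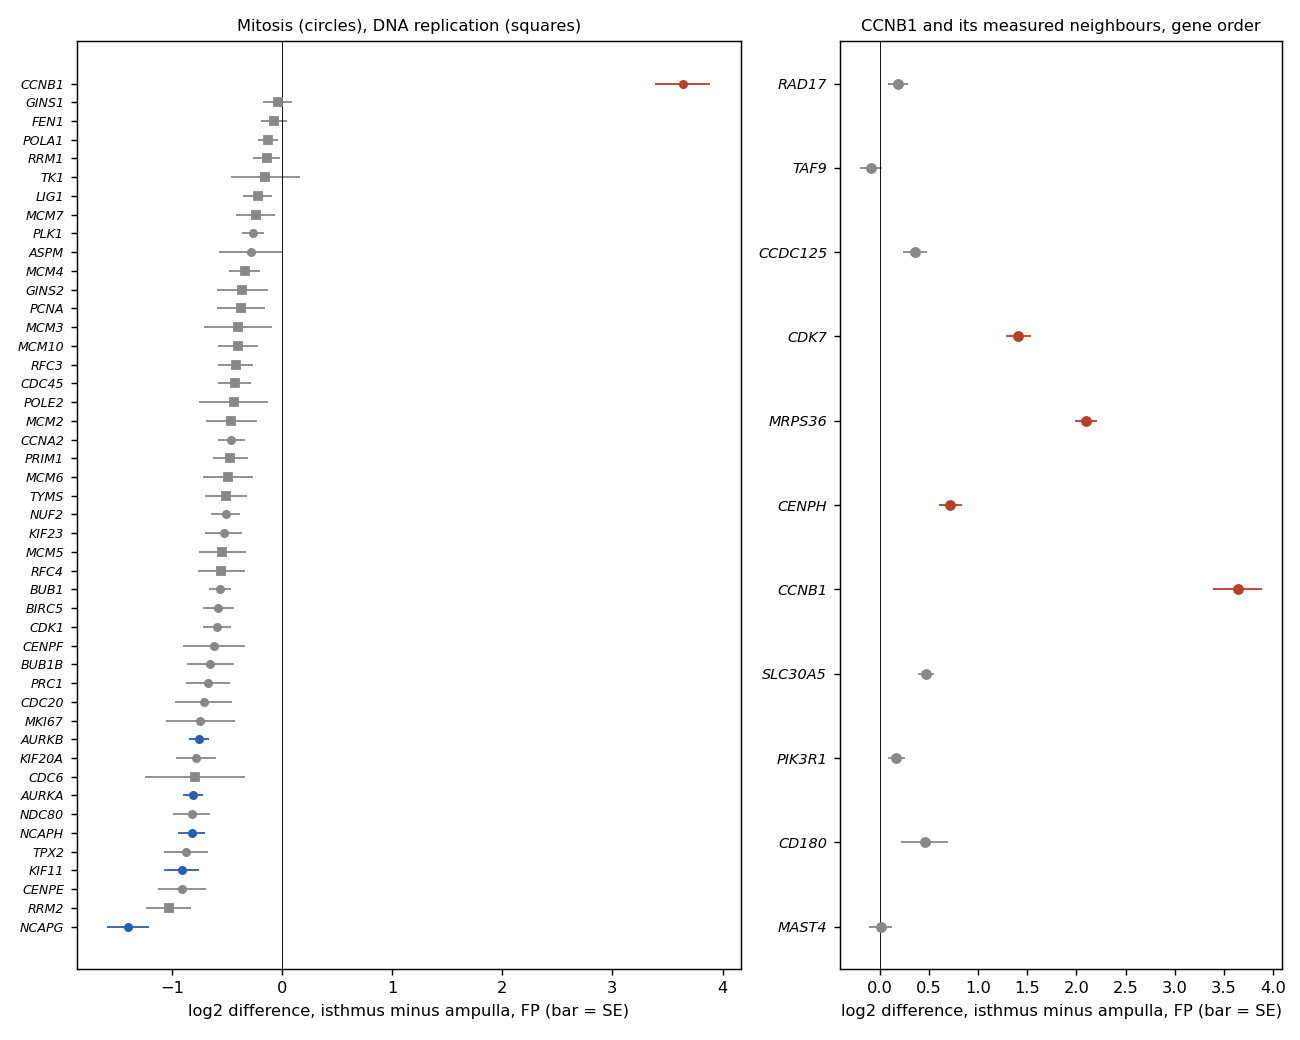
Log2 difference, isthmus minus ampulla, with its SE, for the genes of mitosis (circles) and DNA replication (squares) on the left, and for CCNB1 and its measured neighbours in gene order on the right. CCNB1 at 3.64 is the 1 gene on the left above 0, and on the right CDK7, MRPS36, CENPH and CCNB1 are the called genes of the stretch.

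In total 27 runs of 2 or more adjacent measured genes were called the same way, holding 58 of the 451 called genes. Of these runs 3 had 3 or more genes. How many runs the share of called genes alone would give was not tested. Some runs hold related genes, such as BPIFA1 with BPIFB1 and AQP5 with AQP6. The third such run, beside those of CCNB1 and the ribonucleases, held SVOPL, ATP6V0A4 and TMEM213. ATP6V0A4, a subunit of the proton pump that acidifies the urine and the epididymal lumen, read 8.41, 7.04 and 7.54 in the ampulla and 11.55, 11.02 and 10.38 in the isthmus (3.32, SE 0.29, adjusted p = 0.00515). TMEM213, a small membrane protein, read 9.10, 8.75 and 8.78 against 12.39, 11.89 and 11.68 (3.11, SE 0.16, adjusted p = 0.000673). SVOPL, which resembles a synaptic vesicle protein, was higher by 2.90 (SE 0.14, adjusted p = 0.000621). The 3 calls held, and the genes were picked after their values were seen.

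Several broad cell programmes gave no calls between the segments in the FP. With 2.5% of all genes called, 0 calls in lists of this size is near that share. None of the 23 genes of multiciliated cell formation was called (2 higher and 8 lower in the isthmus at an unadjusted p under 0.05), with a median of -0.21. The ciliogenesis factor FOXJ1 was at 11.13 ± 0.08 and 10.99 ± 0.03 (SD, n = 3; -0.13, adjusted p = 0.532). None of 29 axoneme genes was called (1 and 2), with a median of -0.11. The same was true of 16 glycolysis genes (0 and 5, median -0.14), 26 genes of oxidative phosphorylation (0 and 5, median -0.12), 29 of protein folding in the endoplasmic reticulum (1 and 6, median -0.10), 27 antioxidant genes (3 and 7, median -0.13), 25 interferon-stimulated genes (1 and 4, median 0.00) and 27 complement genes (3 and 7, median -0.06). The F-test and LSD called none of these either, except 1 folding gene higher in the isthmus and 2 complement genes in each direction. Differences under 0 were found for 18 of 23 genes of multiciliated cell formation, 21 of 29 axoneme and 13 of 16 glycolysis genes. They were found for 21 of 26 genes of oxidative phosphorylation, 23 of 29 folding and 18 of 27 antioxidant genes. The interferon-stimulated and complement lists had 12 of 25 and 15 of 27. The fucosidase FUCA1 was higher in the isthmus (0.77, adjusted p = 0.0124, ended without FP heifer 2 or 3, adjusted p up to 0.0819) and the annexin ANXA4 in the ampulla (-0.59, adjusted p = 0.0293, ended without any 1 of the 6 heifers, adjusted p up to 0.172), the 2 calls among 18 genes for sperm binding and luminal proteins.

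Of 528 microRNA genes 2 were called higher in the isthmus and 1 in the ampulla, a smaller share than the 2.5% of all genes called, with a median of 0.07. These probesets read the transcript of the gene and not the mature microRNA alone. All 3 lay under the lower quartile in both segments, so their sizes are uncertain. MIR454 read 5.29, 5.11 and 5.12 in the ampulla and 4.07, 3.89 and 4.46 in the isthmus (-1.03, SE 0.13, adjusted p = 0.0181, ended without FP heifer 1 or 2, adjusted p up to 0.12). MIR592 was higher in the isthmus by 0.78 (SE 0.10, adjusted p = 0.0193, ended without any 1 FP heifer, adjusted p up to 0.108) and MIR95 by 0.81 (SE 0.10, adjusted p = 0.0153, ended without FP heifer 1 or 2, adjusted p up to 0.106, and with no heifer term, adjusted p = 0.163).

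To ask whether the FP pattern was that of the segment in either phase, the same contrast was taken in the 3 LP heifers, where 829 genes were called higher in the isthmus (4.6%) and 695 in the ampulla (3.86%). Of the FP genes, 234 isthmus genes were also called in the LP isthmus (80.7% of the FP list and 28.2% of the LP list) and 114 ampulla genes in the LP ampulla (70.8% and 16.4%). None was called in opposite directions, and 287 of 290 and 159 of 161 had the same sign. Both contrasts came from the same fit with a shared variance per probeset, so these overlaps are not between independent tests. GRP, NETO1, LRP2 and CFTR differed in the LP by 6.29, 6.10, 5.06 and 5.03, near their FP differences. Of the 103 FP genes not called in the LP, only CLEC3A passed the test of a difference between the phases. PPP1R1A (LP difference -1.02, adjusted p = 0.0702), GFAP (0.41, adjusted p = 0.335) and MUC4 (0.62, adjusted p = 0.391) fell short in the LP, but for these the phases did not differ by the test (adjusted p = 0.154, 0.153 and 0.354).

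The segment difference itself differed between the phases for 19 of 26773 probesets (0.071%; 2770 at an unadjusted p under 0.05), 13 of them genes with 1 symbol (0.0722%). With no heifer term the count was 41, and without 1 heifer it was 3 to 4. Beside the 13 genes a second, dimmer probeset of PI3 passed, with 2.71 in the FP and 5.90 in the LP (difference between phases -3.19, adjusted p = 0.0208). CLEC3A was higher in the FP isthmus by 3.72 and differed by 0.24 in the LP (difference between phases 3.48, adjusted p = 0.0208, lost without any of 5 of the heifers, adjusted p up to 0.138). SERPINB12 had the larger isthmus excess in the LP, 5.44 against 1.68 in the FP (adjusted p = 0.00286), as had IHH, 3.44 against 1.65 (adjusted p = 0.0109, lost without any 1 heifer, adjusted p up to 0.0907). For SERPINB12 the difference was lost with no heifer term (adjusted p = 0.0583). KSR2, a scaffold of the MAP kinase pathway, differed by 0.23 in the FP and 3.18 in the LP (adjusted p = 0.00286). Of the 13 genes, SERPINB12 and KSR2 were the 2 that kept an adjusted p under 0.05 when any 1 heifer was left out.

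Sterol genes were among these. INSIG1, which restrains sterol synthesis and is itself induced by the sterol pathway, read 11.24, 11.15 and 11.02 in the FP ampulla and 11.02, 10.94 and 10.77 in the FP isthmus, a difference of -0.23, against 1.81 in the LP (adjusted p of the difference between phases 0.0109, lost without any of 5 of the heifers, adjusted p up to 0.0896). FDFT1, which makes squalene, differed by 0.08 in the FP and 1.69 in the LP (adjusted p = 0.0208, lost without any 1 heifer, adjusted p up to 0.134). Of 17 measured genes of cholesterol synthesis 0 were called in the FP in either direction (1 and 5 at an unadjusted p under 0.05, 1 and 0 by the F-test and LSD) and 10 were called higher in the LP isthmus, with medians of -0.05 and 0.66. Only FDFT1 and INSIG1 of the list passed the test of a difference between phases.

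**Figure D5:**
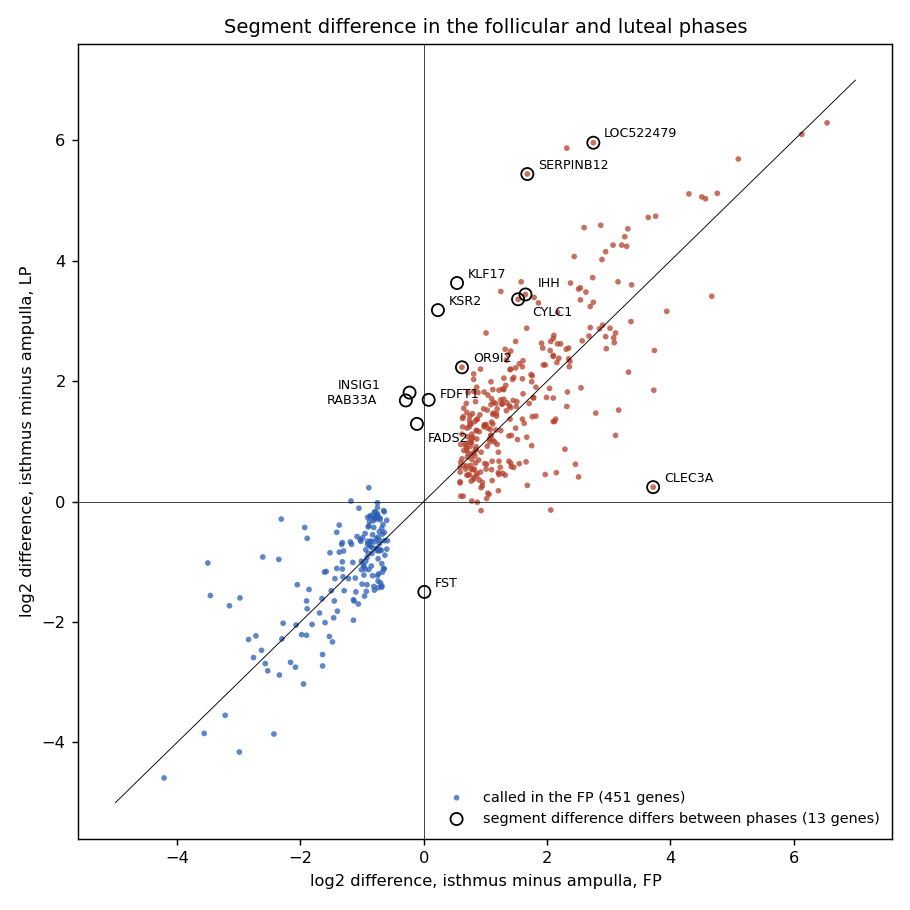
Log2 difference, isthmus minus ampulla, in the FP (horizontal) and the LP (vertical) for the 451 genes called in the FP, red for isthmus and blue for ampulla, with the line of equal difference. Circles mark the 13 genes whose segment difference differed between phases, with CLEC3A far to the right and KSR2, KLF17, INSIG1 and FDFT1 near 0 on the FP axis.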

How the data were processed

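RNA of squeezed oviductal epithelial cells from 6 heifers (3 FP, 3 LP), ampulla and isthmus, was read on 12 Bovine Gene 1.0 ST arrays, 1 per RNA sample. The deposited values are log2 signals that the authors obtained by RMA background correction, quantile normalization and median polish, and the submitters' notes name GCOS 1.2 and Partek 6.4. Quantile normalization gives all arrays nearly the same distribution, so that differences are relative to the other probesets of an array. The log2 values were used as deposited, with no probeset left out. Of 26773 probesets, 18457 have 1 symbol in the platform's annotation, 688 have several and 7628 have none. The last 2 groups were tested but not named. The 401 genes with more than 1 probeset were read on the one with the highest mean over 12 arrays.

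In R 4.3.3 with limma 3.58.1, all 12 arrays were fitted with heifer as a fixed block and a segment effect per phase (4 residual and 2.69 prior degrees of freedom). P-values are two-sided and adjusted by Benjamini-Hochberg over all probesets, called at an adjusted p under 0.05 and at least 1.5-fold. A difference between phases needed the adjusted p alone. The pairing comes from the animal numbers in the titles. The check on it was the correlation of same-numbered deviations from group means, -0.17 to -0.05 in the FP and 0.22 to 0.37 in the LP. Precision is limited by the number of arrays. The study's methods name an F-test with LSD contrasts, run as an alternative. The procedure was tested on simulated data. Python 3.11.15 and matplotlib 3.10.9 drew the plots.

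The comparison and the 50 gene lists were chosen with earlier results of these data known. Named genes are the 15 largest non-overlapping calls per direction, up to 8 called and 4 uncalled members per list, the 8 largest phase differences per direction, the first genes of each cell type list, HOX genes, steroid receptors and called microRNA genes, not all printed. Others are said to be picked after their values were seen. Gene order and synonyms are those of RefSeq (ARS-UCD2.0), and no coordinates are given since the build of the array annotation is not given in the sources used here.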

Additional observations from a re-analysis of the deposited data

Results flagged for a closer look

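For 13 genes the difference between isthmus and ampulla differed between the FP and the LP by the test of that difference in limma, given here as the FP difference minus the LP difference on the log2 scale. CLEC3A had the larger isthmus excess in the FP, with 3.48 (FP 3.72, LP 0.24). FST, which binds activin, had 1.51, and its segments differed by 0.01 in FP heifers and -1.50 in LP heifers. For the other 11 genes the lower difference was that of the FP. SERPINB12 had -3.76, LOC522479 -3.21, KLF17 -3.09, KSR2 -2.95, INSIG1 -2.04, RAB33A -1.97 and CYLC1 -1.83. IHH had -1.79, FDFT1 -1.61, OR9I2 -1.60 and the fatty acid desaturase FADS2 -1.40. Each was significant at an adjusted p of 0.035 or less, and with no heifer term SERPINB12, KLF17, OR9I2 and FST were lost (adjusted p = 0.0583, 0.0816, 0.0669 and 0.133). When 1 heifer was left out, only SERPINB12 and KSR2 passed every time (adjusted p up to 0.0469 for both).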

How the results depend on the processing

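The direction of every called gene was the same in every setting run, which the lack of overlap between the segments largely fixed in advance. The counts moved. Over all probesets 566 were called in the FP, 356 higher in the isthmus and 210 in the ampulla. Leaving out 1 heifer gave 99 to 423, with 79 to 281 toward the isthmus and 20 to 142 toward the ampulla. The FP arrays alone with the heifer term gave 160, of which 119 were toward the isthmus and 41 toward the ampulla. The F-test with LSD contrasts and no heifer term gave 1013 (585 and 428), and at least 2-fold gave 338, with 97 toward the ampulla. The difference between phases was called for 19 probesets, for 41 with no heifer term, 59 with a random heifer term, 43 with an intensity trend and robust prior, 34 with dim probesets left out and 3 to 4 without 1 heifer. As to the pairing, all 12 arrays without the heifer block gave 629 calls and the FP arrays alone without it 452, and 378 of the 451 called genes were shared with the fit without the block (254 isthmus and 124 ampulla genes). No detection calls came with the values, so how far signal over background limits the dimmest genes was not tested.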

Other observations

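Other genes whose FP calls passed whichever heifer was left out were picked here after their values were seen. In the isthmus they included carboxypeptidase E (CPE), which trims peptide hormones, with means of 5.41 ± 0.26 in the ampulla and 8.67 ± 0.42 in the isthmus (SD, n = 3; log2 difference 3.26, SE 0.19, limma adjusted p = 0.00116), NPL, which splits sialic acid (3.31, SE 0.21, adjusted p = 0.00146), and the fatty acid carrier and ligase SLC27A2 (3.29, SE 0.28, adjusted p = 0.00444). The prolactin-induced protein PIP read 6.14, 5.41 and 5.31 in the ampulla and 8.81, 7.68 and 7.98 in the isthmus (2.54, SE 0.16, adjusted p = 0.00138). A second PIP probeset was higher in the isthmus by 1.07 (SE 0.18, adjusted p = 0.0396). The ampulla mean of CPE and the PIP values in the ampulla of FP heifers 2 and 3 lay under the lower quartile, so these sizes are uncertain. A second proton pump subunit, ATP6V1C2, was higher by 1.19 (SE 0.08, adjusted p = 0.00223), the kidney development factor SALL1 by 2.38 (SE 0.17, adjusted p = 0.00242) and the ciliary protein of kidney and bile ducts PKHD1 by 2.35 (SE 0.20, adjusted p = 0.00464). In the ampulla CDKN2C, an inhibitor of the cell cycle, read 9.03, 9.57 and 9.43 against 7.71, 8.07 and 8.39 in the isthmus (-1.29, SE 0.11, adjusted p = 0.00539). The monocarboxylate carrier SLC16A7 was also higher there (-1.90, SE 0.16, adjusted p = 0.00464). All of these genes had no overlap between the segments and differed in the same direction in the LP.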
